A study of Homo sapiens with 6 samples.

Results

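Transcripts of the YAP/TEAD system were measured by RNA sequencing in AC16 cells given a fatty acid (PA) or the vehicle. The set comprised 10 genes of the 29638 gene rows in the tables: the coactivators YAP1 and WWTR1, the DNA-binding partners TEAD1, TEAD2, TEAD3 and TEAD4, and the targets CCN1, CCN2, ANKRD1 and AMOTL2. Each was taken by an exact match of its gene name and each was found once; WWTR1 encodes the protein called TAZ, and the row that carries the name TAZ, which is the tafazzin gene, was not used. The genes were chosen by their place in the pathway together with their RPKM in PA against control, which were already known, so the differences of these 10 genes are given as a description; where they are counted in the fit over all genes, the count supports nothing.

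The libraries were PA 1, 2 and 3, from cells whose treatment is labelled palmitelaidic acid, a trans-monounsaturated fatty acid, whereas the series title names palmitic acid, its saturated counterpart, and control 1, 2 and 3, from cells given ethanol. All 6 libraries came from wild-type AC16, an established human line made by fusing ventricular cardiomyocytes with SV40-transformed fibroblasts. The sources used here give no dose, no exposure time and nothing on separate cultures; the p-values therefore reflect the spread among these libraries alone, and that spread could be technical. In bulk RNA, a gene that is lower in every cell and a gene that is expressed by fewer cells cannot be told apart.

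YAP1 and TAZ are transcriptional coactivators that do not bind DNA themselves. When the Hippo kinase cascade is active, LATS kinases phosphorylate them and they are held in the cytoplasm or degraded; when it is not, as in spread cells on stiff matrix, they enter the nucleus, bind TEAD factors and raise the transcription of targets such as CCN1 and CCN2. In the heart this pathway is known for its part in cardiomyocyte proliferation and in the activation of cardiac fibroblasts. Its activity is set largely by the location and phosphorylation of the proteins, which transcript levels do not measure.

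RPKM values divide the reads of a gene by its length and by the size of the library, so levels of different genes can be set side by side. Sums of RPKM per library were between 733025 and 881369, which are not read depths; the depth itself is unknown, and steps in the low values put the libraries between 0.940 and 1.13 times their common average. Among the 14159 genes that averaged 1 RPKM or more, 681 (4.81%) were past an adjusted p of 0.05 between PA and control in a limma fit on log2(RPKM + 1). Of those calls 59% were higher in PA, against 39% after each library was rescaled to a common sum, a rescaling that put the all-gene median of the log2 fold changes at -0.11, against -0.02 as deposited. With a library left out the number of genes past the threshold was 202 without PA 1, 10 without PA 2, 364 without PA 3, 15 without control 1, 78 without control 2 and 80 without control 3. Among markers, 2 of 11 matched cardiomyocyte genes, GATA4 and TNNI3, reached a mean of 1 RPKM, while TNNT2, MYH6, MYH7, MYL2, ACTN2, TTN and RYR2 did not; 9 of 10 fibroblast markers did. The summed level of the fibroblast markers, most of it VIM, was 2471 to 2567 RPKM in PA and 2683 to 3189 RPKM in control. Within it COL3A1 (0.860 RPKM in PA and 3.81 RPKM in control, limma adjusted p = 0.00730) and FAP (11.5 RPKM in PA and 19.9 RPKM in control, limma adjusted p = 0.0281) fell, COL1A1 averaged 138.7 RPKM in PA and 299.2 RPKM in control (limma adjusted p = 0.0510) and COL1A2 28.6 RPKM in PA and 25.1 RPKM in control (limma adjusted p = 0.335). The sum of 4 smooth muscle markers was 107.4 to 112.0 RPKM in PA and 61.4 to 76.5 RPKM in control. Most of it was TAGLN (82.9 RPKM in PA and 50.9 RPKM in control), which rose, as did ACTA2 (23.9 RPKM in PA and 16.6 RPKM in control). CNN1 did not pass (limma adjusted p = 0.562), and MYH11 was near 0 and lower in PA (0.073 RPKM in PA and 0.17 RPKM in control). The sum of 11 cardiomyocyte markers was 14.1 to 17.4 RPKM in PA and 12.6 to 13.6 RPKM in control. Most of the cardiomyocyte sum was GATA4; TNNI3 rose, at 3.30 RPKM in PA and 0.913 RPKM in control (limma adjusted p = 0.0288). Of the leukocyte markers, CD14 had 5, 6.1 and 5.83 RPKM in PA, against 3.18, 2.91 and 2.95 RPKM in control, while PTPRC and CD3E were at or near 0 in every library. The sum of 3 endothelial markers was 0.79 to 1.17 RPKM in PA and 0.72 to 0.97 RPKM in control. The part of these differences in the results below was not tested.

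Within the set, the targets CCN1 and CCN2 were higher in PA, the targets ANKRD1 and AMOTL2 were lower, and TEAD2 was the one factor of 6 whose groups did not overlap, being higher in PA. All 10 genes reached the expression filter. CCN1 and CCN2 were past the threshold of the fit over all genes, both as higher in PA, where 2.84% of all genes were, and 0 were past it as lower, where 1.97% of all genes were. Neither was past it without PA 2 or without control 1, and CCN1 was past it only without PA 3 among the 6 fits with a library left out, while CCN2 was past it in 4 of them. In 5 of the 10 genes the PA and control libraries did not overlap, as in 32.6% of all genes tested; 3 of these were higher in PA (16.7% of all genes) and 2 lower (15.9%). Nothing is read from these counts or from how they hold, because the set was chosen with this comparison known.

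**Figure D1:**
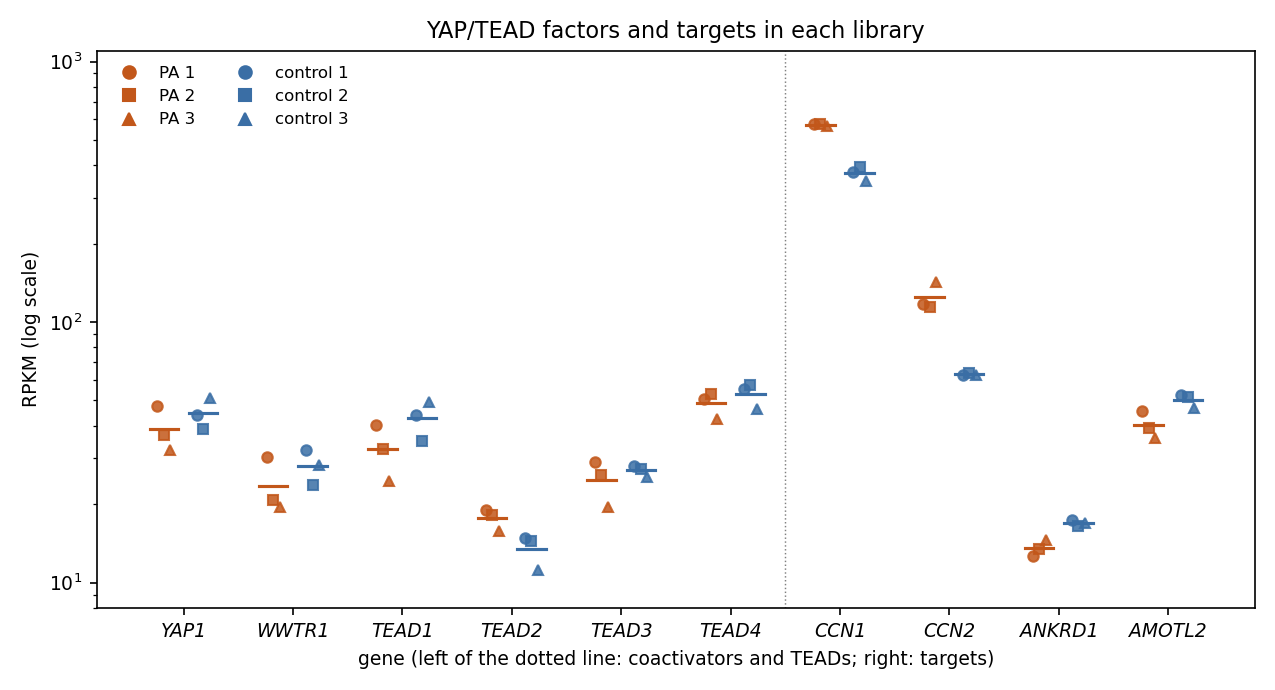
RPKM on a log scale of the 10 genes in each library, PA in orange left of control in blue, with a symbol for each replicate number and a line at each group's mean. CCN1 and CCN2 lie higher in all 3 PA libraries, ANKRD1 and AMOTL2 lower, TEAD2 higher, and the other 5 genes overlap between the groups.

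YAP1, the founding coactivator, had 47.5, 36.8 and 32.4 RPKM in PA 1, 2 and 3, against 43.9, 39.0 and 51.2 RPKM in control 1, 2 and 3. Its PA values lay on both sides of the lowest control value, so the groups overlapped. The means were 38.9 ± 7.78 RPKM in PA and 44.7 ± 6.15 RPKM in control (SD, n = 3 each), a log2 fold change of -0.20 ± 0.16 (limma SE) on the log2(RPKM + 1) scale.

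WWTR1, which encodes TAZ, had 30.3, 20.7 and 19.5 RPKM in PA, against 32.3, 23.6 and 28.3 RPKM in control. PA 1 lay within the control range and PA 2 and PA 3 lay below it. The means were 23.5 ± 5.90 RPKM in PA and 28.1 ± 4.36 RPKM in control (SD, n = 3 each), a log2 fold change of -0.26 ± 0.19 (SE). The ratio of YAP1 to WWTR1 within a library, which does not depend on how libraries are scaled, was 1.57, 1.78 and 1.66 in PA and 1.36, 1.65 and 1.81 in control, so YAP1 had the higher level per length in all 6 libraries and the ratio did not separate the groups.

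Among the TEADs, which carry the DNA-binding domain of the complex, TEAD4 had the highest mean level. TEAD4 had 50.7, 53.2 and 42.5 RPKM in PA, against 55.3, 57.5 and 46.5 RPKM in control, with overlapping groups. TEAD1, known as the main TEAD of the adult heart, had 40.2, 32.7 and 24.5 RPKM in PA, against 43.9, 34.9 and 49.4 RPKM in control. The lowest TEAD1 values were in PA 2 and PA 3, but PA 1 stood within the control range. Their log2 fold changes were -0.12 ± 0.13 for TEAD4 and -0.40 ± 0.20 for TEAD1 (SE).

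TEAD3 had 28.97, 25.9 and 19.5 RPKM in PA, against 28.1, 27.4 and 25.3 RPKM in control. PA 1 was above every control library and PA 3 below every one, and the log2 fold change of -0.13 ± 0.15 (SE) turned to 0.02 without PA 3. TEAD2, which is best known from the early mouse embryo, had 19.0, 18.2 and 15.8 RPKM in PA, against 14.8, 14.4 and 11.2 RPKM in control. All 3 PA values were above all 3 control values, with means of 17.7 ± 1.65 RPKM in PA and 13.5 ± 1.997 RPKM in control (SD, n = 3 each) and a log2 fold change of 0.37 ± 0.14 (SE). Exons of TEAD2 overlap those of CD37 on the opposite strand, which averaged 2.88 RPKM in PA and 2.32 RPKM in control, and those of WWTR1 overlap WWTR1-AS1, at 0.240 RPKM in PA and 0.163 RPKM in control. No source used here says whether reads were counted by strand.

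The makeup of the TEAD pool followed from these values. TEAD2 made up 13.7%, 14.0% and 15.5% of the summed TEAD RPKM in PA, against 10.4%, 10.7% and 8.44% in control, and these shares did not overlap. TEAD4 held 36.5% to 41.5% of the sum in PA and 35.1% to 42.8% in control, and TEAD3 held 19.1% to 20.9% in PA and 19.1% to 20.4% in control. TEAD1 held 23.9% to 28.9% in PA and 26.0% to 37.3% in control, where control 3 was high and control 2 was within the PA range. The 4 TEADs summed to 138.8, 129.9 and 102.3 RPKM in PA and to 142.1, 134.1 and 132.4 RPKM in control, so PA 3 stood below the rest. YAP1 and WWTR1 together came to 0.560, 0.443 and 0.507 times the TEAD sum in PA and 0.536, 0.466 and 0.601 times in control, with overlapping groups.

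**Figure D2:**
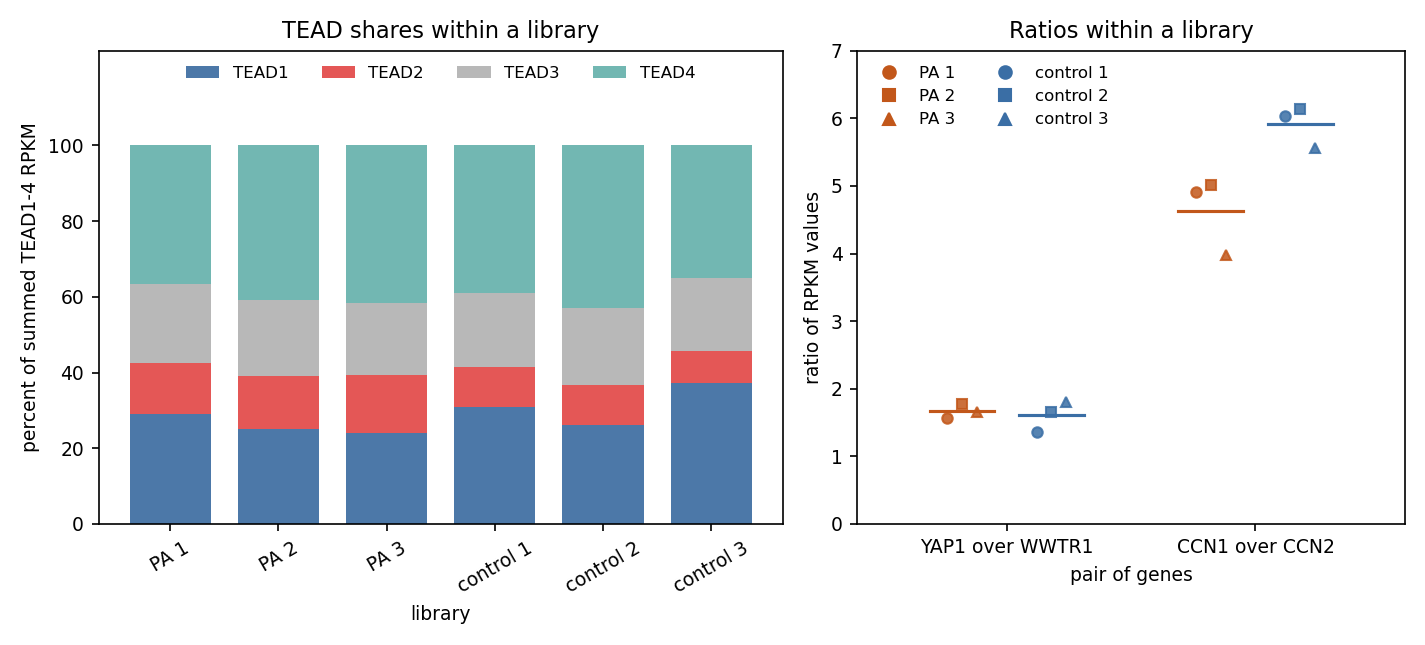
Left, the share of each TEAD in the summed TEAD RPKM of each library, in percent; right, ratios of RPKM values within a library, PA in orange left of control in blue, with a symbol per replicate number and a line at the group mean. The TEAD2 share is 13.7% or more in the PA libraries and 10.7% or less in the control libraries, and the ratio of CCN1 to CCN2 is lower in PA while that of YAP1 to WWTR1 overlaps.

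PA 3 was the lowest of the 3 PA libraries for 6 of 6 factors, and for 45.1% of all genes tested. It also had the highest sum of RPKM, 881369, against 809535 in PA 1 and 796422 in PA 2. The part of that sum in the low values was not tested. Without PA 3 the log2 fold changes were -0.08 for YAP1, -0.15 for WWTR1, -0.22 for TEAD1, -0.03 for TEAD4 and 0.45 for TEAD2. The coefficient of variation in PA was 20% for YAP1, 25.1% for WWTR1, 24.2% for TEAD1 and 19.4% for TEAD3, against 13.8%, 15.5%, 17.2% and 5.29% in control. It was 11.4% in PA and 11% in control for TEAD4, and TEAD2 had the narrower spread in PA, with 9.36% in PA and 14.8% in control. PA 3 had no such place among the targets, where it was the lowest PA library for CCN1 and AMOTL2 and the highest for CCN2 and ANKRD1.

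CCN1 and CCN2 encode secreted matricellular proteins that bind integrins and heparan sulfate, and CCN2 is also known as connective tissue growth factor. CCN1 had 576, 575 and 567 RPKM in PA 1, 2 and 3, against 378, 392 and 349 RPKM in control 1, 2 and 3. As deposited, the PA values lay close together, with a coefficient of variation of 0.844%, and far above the control values. The means were 573 ± 4.83 RPKM in PA and 373 ± 22.3 RPKM in control (SD, n = 3 each), 1.54 times as high in PA, and the log2 fold change was 0.62 ± 0.09 (SE). Over its 14 alternatives that value ran from 0.45 (quantile normalization) to 0.66 (without control 2), and it was 0.51 with the libraries rescaled to a common sum.

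CCN2 had 117.5, 114.6 and 142.3 RPKM in PA, against 62.7, 63.9 and 62.7 RPKM in control. Here the control libraries were the close ones, and PA 3 was the highest of all. The means were 124.8 ± 15.3 RPKM in PA and 63.1 ± 0.664 RPKM in control (SD, n = 3 each), 1.98 times as high in PA, with a log2 fold change of 0.97 ± 0.11 (SE) that was above that of 99.1% of the genes tested. Exons of CCN2 overlap AL133346.1 on the opposite strand, at 0.950 RPKM in PA and 0.460 RPKM in control, a small level beside that of CCN2. The ratio of CCN1 to CCN2 within a library was 4.90, 5.02 and 3.99 in PA and 6.03, 6.15 and 5.56 in control, so the ratio was lower in every PA library than in any control library. Relative to YAP1 in the same library, CCN1 stood at 12.1, 15.6 and 17.5 in PA and 8.62, 10.1 and 6.81 in control, and CCN2 at 2.47, 3.11 and 4.39 in PA and 1.43, 1.64 and 1.23 in control, both without overlap.

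ANKRD1, a muscle ankyrin repeat protein of the nucleus and the sarcomere that is widely used as a YAP target in heart cells, differed in the other direction. It had 12.65, 13.4 and 14.6 RPKM in PA, against 17.4, 16.6 and 16.9 RPKM in control. The highest PA value was below the lowest control value. The means were 13.55 ± 0.966 RPKM in PA and 16.9 ± 0.396 RPKM in control (SD, n = 3 each), 0.800 times as high in PA, and the log2 fold change was -0.30 ± 0.10 (SE).

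AMOTL2, an angiomotin family scaffold that binds YAP1 and is itself a YAP target, had 45.5, 39.4 and 35.8 RPKM in PA, against 52.7, 51.7 and 46.6 RPKM in control. The groups did not overlap, but PA 1 and control 3 were close. The means were 40.2 ± 4.88 RPKM in PA and 50.3 ± 3.25 RPKM in control (SD, n = 3 each), with a log2 fold change of -0.32 ± 0.12 (SE). That value was -0.51 after a trend with transcript length and GC content had been removed from each library, the lowest of its 14 alternatives. The 4 targets thus split into a pair that was higher in PA and a pair that was lower.

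Promoters of the targets are shown because TEADs bind the letters GGAATG. RefSeq promoter windows on GRCh38.p14 were at hand for 7 of the 10 genes, not for CCN1, TEAD1 and TEAD4, and the 250 bases before the annotated start were searched for GGAATG on both strands, printed in capitals; a site on the opposite strand reads CATTCC. The 3 windows of targets that hold it lie at chr6:131951373-131951622 (minus strand) for CCN2, chr10:90921088-90921337 (minus strand) for ANKRD1 and chr3:134374448-134374697 (minus strand) for AMOTL2, and read, 5′ to 3′:
CCN2: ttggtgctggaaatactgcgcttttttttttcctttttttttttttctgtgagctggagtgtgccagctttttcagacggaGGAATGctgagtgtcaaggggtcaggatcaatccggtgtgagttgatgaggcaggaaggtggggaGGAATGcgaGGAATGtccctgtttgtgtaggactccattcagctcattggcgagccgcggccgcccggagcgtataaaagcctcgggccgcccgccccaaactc
ANKRD1: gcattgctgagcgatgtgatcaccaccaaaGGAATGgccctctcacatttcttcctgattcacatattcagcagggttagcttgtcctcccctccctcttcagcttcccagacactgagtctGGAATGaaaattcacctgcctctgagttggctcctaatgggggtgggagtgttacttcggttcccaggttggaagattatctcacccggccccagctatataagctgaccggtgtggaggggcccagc
AMOTL2: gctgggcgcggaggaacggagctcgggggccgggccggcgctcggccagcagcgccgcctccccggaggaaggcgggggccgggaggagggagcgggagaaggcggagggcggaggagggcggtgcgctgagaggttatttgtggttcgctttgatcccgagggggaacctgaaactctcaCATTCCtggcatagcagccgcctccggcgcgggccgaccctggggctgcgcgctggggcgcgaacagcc

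CCN2 held 3 matches, beginning 169, 104 and 95 bases before the start, and ANKRD1 held 2, beginning 220 and 128 bases before it. AMOTL2 held 1, as CATTCC, 69 bases before its start; a window of AMOTL2 at another start held 0. At least 1 match was present in 11.9% of all 35116 promoter windows of this length, at least 2 in 0.940% and at least 3 in 0.0826%. Among the factors, the YAP1 window held 1 match and those of WWTR1, TEAD2 and TEAD3 held 0. TGANTCA, with any base at N, is a loose pattern for sites of AP-1 factors, which are often found near TEAD sites. As a pattern it reads the same on both strands, and it was present in 6.57% of all windows. The ANKRD1 window held this loose pattern once, as tgattca with t at N, between its 2 GGAATG matches, closer to the first and overlapping neither. CCN2, which was higher in PA, and ANKRD1, which was lower, both carried several matches. Whether the matches have a part in either difference was not tested. A match describes the letters and not binding.

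Levels of the 10 genes spanned a wide range. By the mean over all 6 libraries the order was CCN1 (473 RPKM), CCN2 (93.9 RPKM), TEAD4 (50.9 RPKM), AMOTL2 (45.3 RPKM), YAP1 (41.8 RPKM), TEAD1 (37.6 RPKM), TEAD3 (25.9 RPKM), WWTR1 (25.8 RPKM), TEAD2 (15.6 RPKM) and ANKRD1 (15.2 RPKM). Of the 9 neighbouring pairs in this order 6 had overlapping ranges; the steps without overlap were those below CCN1, below CCN2 and below WWTR1. CCN1 was above 98.5% of the genes tested, while TEAD2 and ANKRD1 were above 55.9% and 55.3%.

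Profiles most like those of the targets were sought among 11880 protein-coding genes, by the Euclidean distance between log2(RPKM + 1) values over the 6 libraries, each gene centred on its mean. The nearest to CCN1 were BAIAP2L1 (distance 0.0881), GDF15 (0.107) and EEFSEC (0.116), where the profile of CCN1 itself had a length of 0.768. The nearest to CCN2, with a length of 1.21, were SAA2 (0.170), HES7 (0.192) and RGS10 (0.197). GDF15, a stress-induced cytokine of the TGF-beta family, averaged 20.4 RPKM in PA and 13.4 RPKM in control, and SAA2, an acute phase apolipoprotein with a near-identical paralog that makes its value uncertain, 23.2 RPKM in PA and 11.8 RPKM in control. THAP1, CYP20A1 and UBE2N were nearest to ANKRD1 (0.0657, 0.0725 and 0.0778, against a length of 0.399), and INTS3, CREB3L1 and DHX38 to AMOTL2 (0.0618, 0.0678 and 0.0728, against a length of 0.478). BAIAP2L1, EEFSEC, HES7 and RGS10 were likewise higher in PA. The search used the same 6 libraries, so the direction of each neighbour follows from how it was picked. The nearest profiles are a description over 6 libraries.

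Relatives of the targets, which are no members of the set, were tested in the fit over all genes. CCN3, a CCN protein often opposed to CCN2 in its effects on matrix, fell in PA: it had 11.5, 10.1 and 11.6 RPKM in PA, against 24.6, 25.2 and 22.3 RPKM in control. Every PA value was below every control value, and the log2 fold change was -1.05 ± 0.11 (SE, limma adjusted p = 0.00730). CCN4 was below the expression filter, and is named after its values were seen; it had 0.14, 0.21 and 0.07 RPKM in PA, against 1.83, 1.51 and 1.56 RPKM in control, without overlap. In the fit without that filter it passed as lower in PA (log2 fold change -1.21, limma adjusted p = 0.0304). CCN5 and CCN6 stayed at or below 0.15 RPKM in all libraries. The CCN family therefore held members that were higher in PA (CCN1 and CCN2), one that fell (CCN3) and one that passed as lower where the filter was lifted (CCN4).

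ANKRD2, the muscle ankyrin repeat relative of ANKRD1, rose in PA, where ANKRD1 was lower. It had 6.04, 5.80 and 6.60 RPKM in PA, against 2.61, 2.99 and 2.22 RPKM in control, a log2 fold change of 0.99 ± 0.13 (SE, limma adjusted p = 0.0148). The groups were far apart at this low level. Neither AMOT (log2 fold change -0.05 ± 0.20, limma adjusted p = 0.905) nor AMOTL1 (-0.11 ± 0.19, limma adjusted p = 0.746), the angiomotins related to AMOTL2, passed. Without PA 2 and without control 1, CCN3 and ANKRD2 no longer passed (limma adjusted p from 0.0628 to 0.0894), and ANKRD2 did not pass without control 3 either (0.0573). Over all alternatives the limma adjusted p was 0.00372 to 0.0737 for CCN3 and 0.00631 to 0.0894 for ANKRD2, and neither changed direction.

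**Figure D3:**
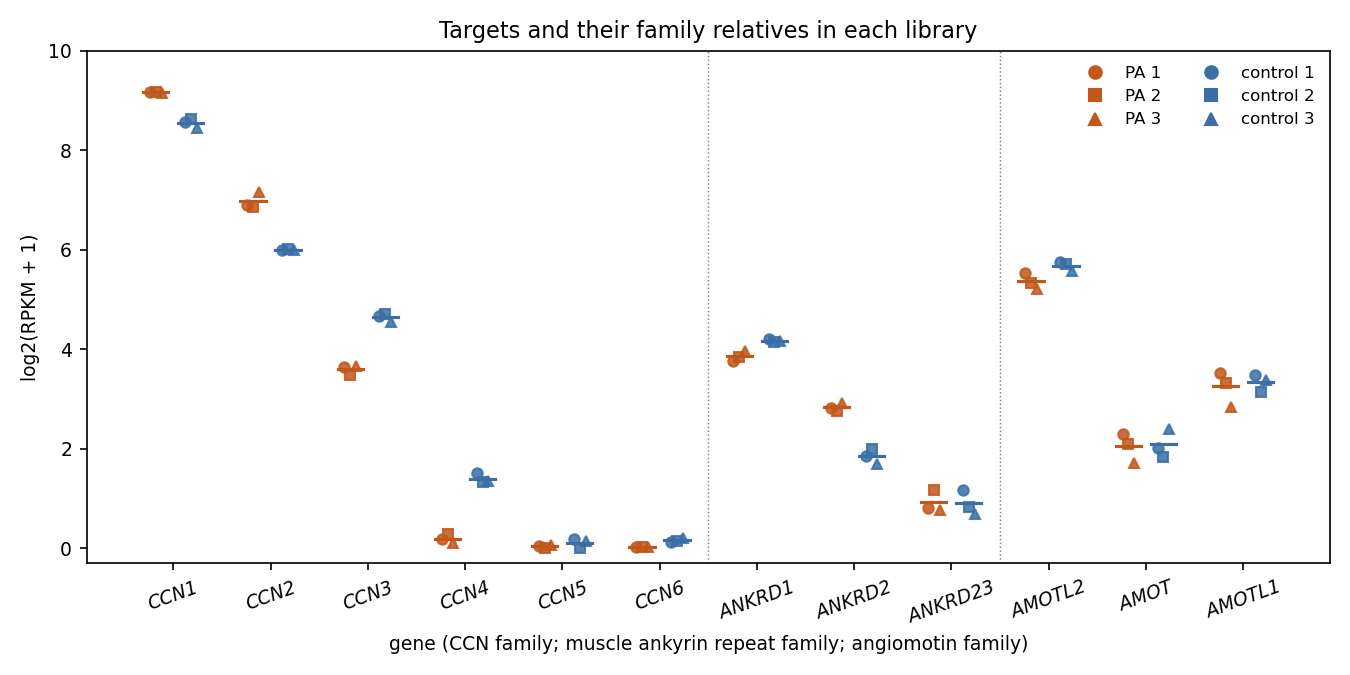
Levels as log2(RPKM + 1) of the CCN, muscle ankyrin repeat and angiomotin families in each library, PA in orange left of control in blue, with a symbol per replicate number and a line at the log2 of the group's mean RPKM plus 1. CCN1 and CCN2 lie higher and CCN3 and CCN4 lower in PA, and ANKRD1 and ANKRD2 lie on opposite sides of their control values.

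Upstream of YAP1 and TAZ, the kinase cascade had no call in the fit used throughout. Of 19 tested genes of the MST, LATS, MOB, NDR, TAO and MAP4K groups with SAV1 and NF2, 0 passed the limma threshold. Over all genes tested 4.81% passed it, so in a list this short nothing is read from the 0. An unadjusted limma p under 0.05 was found for 4 (21.1%), as for 25.9% of all genes tested. Of the 19 log2 fold changes 14 (73.7%) were negative, against 52.5% over all genes tested, and the median was -0.23, against -0.02. STK38, an NDR kinase, was nearest the threshold, with 13.7, 14.2 and 13.97 RPKM in PA, against 18.6, 18.2 and 21.0 RPKM in control and without overlap (log2 fold change -0.44 ± 0.10, limma adjusted p = 0.0534). It passed with a filter of 5 RPKM (limma adjusted p = 0.0441) and, together with TAOK2 (0.0115), with a trend by length and GC content removed (0.0441), where 14% of all genes passed. The largest were those of TAOK1 (-0.51 ± 0.19, limma adjusted p = 0.140) and TAOK2 (-0.47 ± 0.14, limma adjusted p = 0.0949), kinases that activate the MST kinases. LATS1, which phosphorylates YAP1, had 6.01, 5.02 and 4.11 RPKM in PA, against 7.46, 6.25 and 8.20 RPKM in control, and LATS2, both a kinase of the cascade and a YAP target, had 14.5, 11.3 and 10.1 RPKM in PA, against 12.2, 11.2 and 11.8 RPKM in control. The LATS1 groups did not overlap, while those of LATS2 did, and neither gene passed; LATS1, LATS2 and STK38 are named after their values were seen.

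Among 25 tested regulators of the pathway 2 fell (8%, against 1.97% of all genes) and 0 rose (2.84% of all genes did). AJUBA, a LIM protein that restrains LATS kinases, had 30.45, 26.8 and 27.6 RPKM in PA, against 45.0, 40.4 and 46.55 RPKM in control, a log2 fold change of -0.62 ± 0.11 (SE, limma adjusted p = 0.0288). FRMD6, a FERM domain protein known as an activator of the Hippo cascade, had 79.0, 64.0 and 70.1 RPKM in PA, against 107.6, 96.3 and 112.3 RPKM in control, a log2 fold change of -0.56 ± 0.12 (SE, limma adjusted p = 0.0399). Neither gene had overlapping groups. Exons of AJUBA overlap AL132780.3 on the same strand, at 1.53 RPKM in PA and 0.887 RPKM in control. The cofactors of the VGLL family, which compete with YAP1 for TEADs, gave 0 calls in limma for the 2 that could be tested. Of all genes 4.81% passed, so nothing is read from this 0. An unadjusted limma p was under 0.05 for 1 of the 2, as for 25.9% of all genes tested. VGLL3 was at -0.56 ± 0.22 (limma adjusted p = 0.164) and VGLL4 at -0.30 ± 0.18 (limma adjusted p = 0.310).

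Other targets of YAP and TAZ moved both ways. A published signature of 22 targets holds the 4 targets of the set and 18 further genes, all tested. Of these 18, 1 rose (2.84% of all genes did) and 2 fell (1.97% of all genes did), together 16.7% against 4.81%. Their median log2 fold change was -0.03, against -0.02 over all genes tested. F3, tissue factor, fell: it had 21.3, 21.2 and 23.8 RPKM in PA, against 45.8, 50.9 and 50.4 RPKM in control, a log2 fold change of -1.12 ± 0.10 (SE, limma adjusted p = 0.00730). TGFB2, a TGF-beta ligand, fell as well, with 5.48, 6.91 and 7.18 RPKM in PA, against 11.3, 12.8 and 11.8 RPKM in control (log2 fold change -0.79 ± 0.13, limma adjusted p = 0.0252). IGFBP3, which binds insulin-like growth factors, rose, with 5.93, 5.40 and 5.11 RPKM in PA, against 3.31, 3.45 and 3.53 RPKM in control (log2 fold change 0.55 ± 0.12, limma adjusted p = 0.0419). Its call did not hold with the libraries rescaled to a common sum (log2 fold change 0.46, limma adjusted p = 0.0949). In each of these 3 genes the groups were apart. TGFB2 shares exons with TGFB2-OT1 on the same strand, at 3.29 RPKM in PA and 3.65 RPKM in control, so its value is uncertain.

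Of 7 further targets, 1 rose (2.84% of all genes did) and 1 fell (1.97% of all genes did), together 28.6% against 4.81%. AREG, which encodes the EGF receptor ligand amphiregulin, had 4.49, 4.25 and 6.39 RPKM in PA, against 2.01, 2.60 and 2.33 RPKM in control (log2 fold change 0.85 ± 0.17, limma adjusted p = 0.0349). THBS1, the matrix protein thrombospondin 1, had 103, 81.7 and 62.8 RPKM in PA, against 192, 179 and 181 RPKM in control (log2 fold change -1.17 ± 0.17, limma adjusted p = 0.02). Both genes had groups that did not overlap. On the opposite strand THBS1 overlaps AC037198.2, at 2.29 RPKM in PA and 4.67 RPKM in control. Counted once each, and with the relatives of the targets among them, 71 non-member genes of the pathway lists were tested. Of these 3 rose and 6 fell, 12.7% against 4.81% of all genes, with a median log2 fold change of -0.11. The relatives CCN3 and ANKRD2, which are not listed as pathway genes or targets, gave 1 of the falls and 1 of the rises. These lists were written with earlier results of the same data known, so the share describes them and no more.

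Of these 9 calls, 4 held without PA 1, 0 without PA 2, 6 without PA 3, 1 without control 1, 3 without control 2 and 2 without control 3. In the same fits 0.0706% (without PA 2) to 2.57% (without PA 3) of all genes tested passed. The call of F3 held in 5 of these 6 fits, CCN3 in 4, ANKRD2 in 3, THBS1 in 2, AJUBA and TGFB2 in 1 each (without PA 3), and FRMD6, IGFBP3 and AREG in 0. The sign of each was the same in every alternative in which it was tested.

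**Figure D4:**
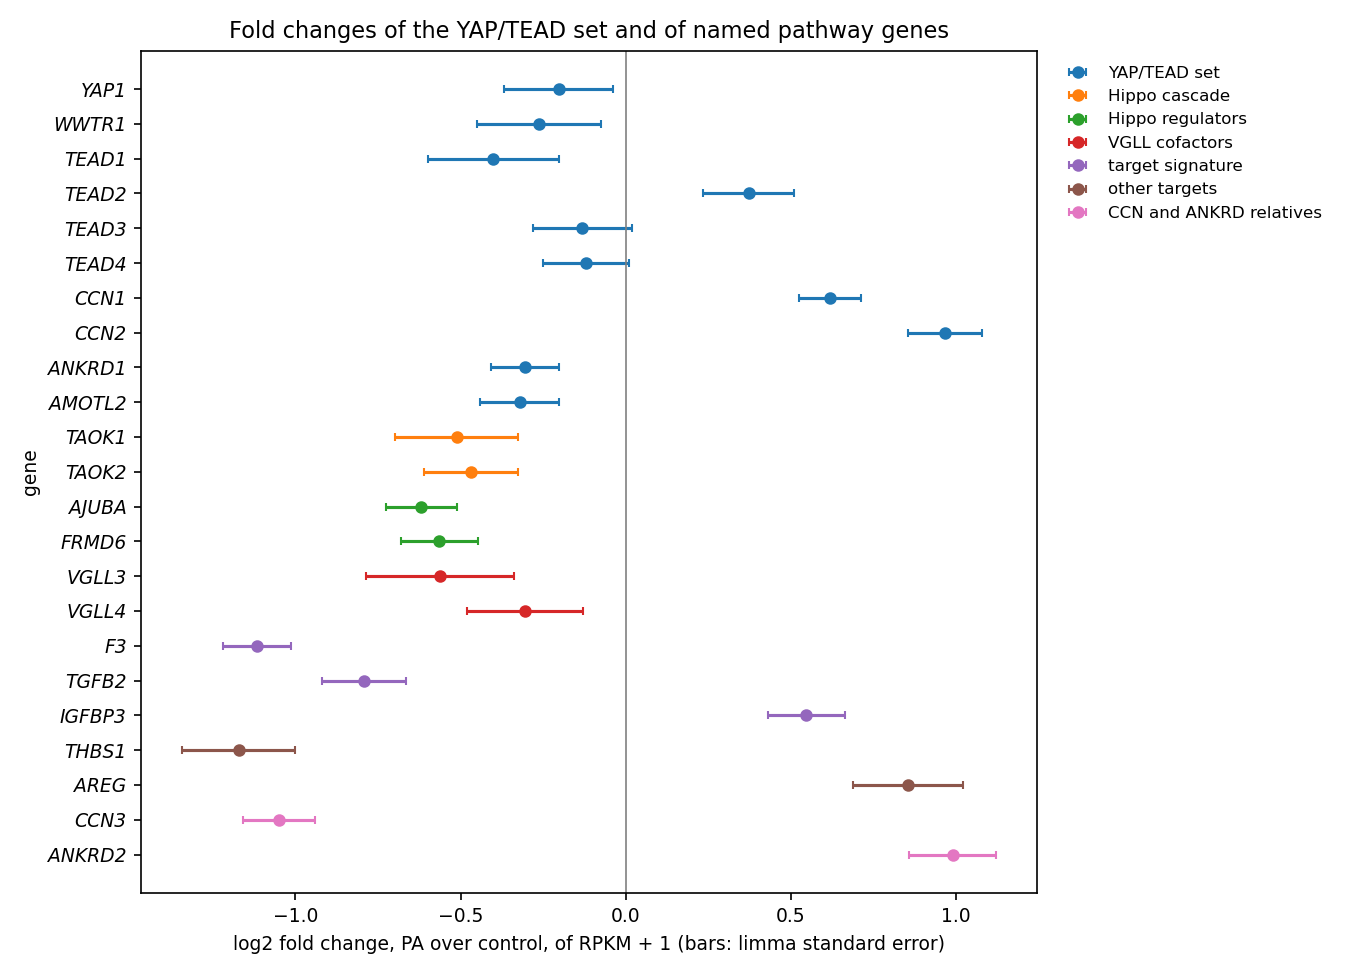
Log2 fold changes of RPKM + 1, PA over control, with limma standard errors as bars. Shown are the 10 genes of the set and 13 named genes of the pathway lists, coloured by list, with CCN3 and ANKRD2 as relatives of the targets. Points to the right of 0 are higher in PA: CCN2 at 0.97 and ANKRD2 at 0.99 lie farthest right, and THBS1 at -1.17, F3 at -1.12 and CCN3 at -1.05 farthest left.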

How the data were processed

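The 6 messenger RNA libraries, 3 PA and 3 control, were prepared from total RNA of AC16 cells. The values are RPKM with 2 decimals, deposited by the authors per library. Per the submitters' processing notes, the build was hg19 and the tools were FastQC, fastp, HISAT2, StringTie and RSEM, with neither role nor version; no source used here gives the gene models, the strand setting or the treatment of shared reads. RPKM are not counts, so the test was limma 3.58.1 in R 4.3.3 (two-sided, eBayes with trend) on log2(RPKM + 1), over 14159 genes with a mean of at least 1 RPKM in the 6 libraries, with Benjamini-Hochberg adjustment and a threshold of 0.05. With 3 libraries a group the smallest p of an exact permutation test is 0.1, so none was run. Gene types, exon overlaps, lengths and GC content came from GENCODE 29, whose build differs from hg19, so no coordinates of the tables are given; promoters came from RefSeq (GRCh38.p14).

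The members and lists were chosen with earlier results of these data known. Named were the 10 members, up to 4 passing genes of each of 6 lists with the largest changes (or up to 2 where none passed), and the 3 nearest profiles to each target. Alternatives covered pseudocount, filter, scaling, variance model, replicate block, a length and GC trend (splines with 4 degrees of freedom) and each library left out. The summed level of the leukocyte markers is not reported here.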

Additional observations from a re-analysis of the deposited data

How the results depend on the processing

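Of the 14 alternatives, 9 of the 10 genes of the set kept the sign of their log2 fold change in all of them; the exception was TEAD3 (0.02 without PA 3). Without the filter on low values 72 genes (0.243% of those tested) passed, among them 1 of the set (CCN2). So did 3 of 78 genes (3.85%) of the pathway lists, relatives of the targets counted in: F3 and the relatives CCN3 and CCN4. CCN4 was not among the 71 tested above the filter. With a trend by length and GC removed, 1893 genes (14% of those tested) passed, with 4 of the set (CCN1, CCN2, TEAD2 and AMOTL2). Of the 71, 14 (19.7%) passed, the relatives CCN3 and ANKRD2 among them. With each library left out in turn, 10 to 364 genes (0.0706% to 2.57% of those tested) and 0 to 2 of the set passed. Of the 71, 0 to 6 did (0% to 8.45%). The lowest count of genes came without PA 2. The causes were not tested. With the replicate number as a block 98 genes (0.692% of those tested) passed, with 1 of the set (CCN2). Of the 71, 3 (4.23%) passed: F3, THBS1 and the relative CCN3. Deviations of same-numbered libraries correlated at 0.157, -0.0144 and 0.0371, so the numbers were not taken as pairs. Not every library correlated best with its own number. Read depth is unknown, so no counting error can be given.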
